A study of Mus musculus with 8 samples.

Results

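The amino acid transporter genes outside the Slc38a family were read in islets of βFbln5KO and control mice. They were taken by symbol, as every gene on the array whose name starts with Slc1a, Slc3a, Slc6a, Slc7a, Slc36a or Slc43a, which gave 53 of the 22911 genes named on the array and 53 of its 392 solute carrier genes. Of these, 51 are members of the transporter families, and 2 (Slc7a6os and Slc36a1os) are opposite-strand genes that share a name with a neighbour. Islets are the endocrine cell clusters of the pancreas, and Fbln5 encodes fibulin-5, a secreted glycoprotein of elastic fibers. Both groups were male littermates aged 11 weeks that carried Fbln5 alleles with the first exons between loxP sites. The βFbln5KO mice also carried the Ins1-Cre transgene, in which the mouse insulin 1 promoter drives Cre, so that other islet cells keep the gene, whereas the controls had the floxed alleles without it. RNA from 150 islets per extraction was hybridized to 8 one-colour Agilent arrays, 4 per group, all on 1 slide. The labels do not say whether each extraction was 1 mouse or a pool, and p-values measure the spread between these 4 and 4 extractions.

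Amino acids enter cells through families of carriers that differ in what they take and what drives them. Sodium-driven Slc1a and Slc6a carriers accumulate substrate, Slc7a light chains mostly exchange one amino acid for another while bound to an Slc3a heavy chain, and cationic Slc7a carriers bring in arginine and lysine. Slc36a carriers move small amino acids with protons, in part out of lysosomes, and Slc43a carriers let neutral amino acids pass down their gradient. In β-cells, arginine and leucine are known stimuli of insulin secretion, and amino acid supply feeds the mTORC1 kinase complex.

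On all 8 arrays 52.6% to 58.8% of the spots were called well above background by the scanner software, with the 4 lowest shares in the βFbln5KO group. All 10 beta cell markers, all 6 alpha, 4 delta and 2 PP cell markers and 11 of 12 acinar cell markers were well above background on every array. The mean signal of the beta cell markers, on the log2 scale relative to the array's 75th percentile, was 0.07 below control in βFbln5KO (exact permutation p = 0.086), and that of the alpha cell markers was 2.94 to 3.06 in control and 2.55 to 2.99 in βFbln5KO (exact permutation p = 0.086). The log2 signal of Fbln5 was −1.70, −1.32, −2.05 and −1.83 on control arrays 1 to 4 and −2.74, −2.40, −2.38 and −1.37 on the arrays labelled βFbln5KO 1 to 4. The array labelled βFbln5KO replicate 4 therefore lay inside the control range for the targeted gene, and results that depend on it are also given without it. On the same array Slc38a1 (2.40) and Slc38a2 (1.02) lay with the other βFbln5KO arrays and outside the control ranges of −3.70 to −2.56 and 1.92 to 2.22. Whether its label or its recombination differs was not tested. Whether the Fbln5 probe lies in the deleted exons is not given in the sources used here. The control arrays lay in one row of the slide and the βFbln5KO arrays in the other, and effects of genotype and of slide row cannot be told apart. In whole islets, fewer cells of a type and less RNA per cell cannot be told apart.

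Of the transporter genes that were well above background on every array, only Slc36a1 passed an unadjusted p of 0.05 between βFbln5KO and control islets, and none passed an adjusted one. A gene was read from its probe with the highest mean signal, and of the 53 genes 25 were above background by that call on all 8 arrays (detected throughout), 12 on some of them and 16 on none. The 25 were 24 family members and the opposite-strand gene Slc7a6os, whose log2 fold change was 0.07 (95% interval −0.08 to 0.23). With limma, 0 of the 53 genes passed an adjusted p of 0.05, against 0.0131% of all genes, and 12 passed an unadjusted p of 0.05. Of these 12, 11 were higher in βFbln5KO (16.8% of all genes were) and 1 was lower (2.68% of all genes were). By detection, 8 of the 11 higher genes were on no array well above background and 2 on only some, which left Slc36a1. The methods' t-test gave the same numbers for the 53 genes, 11 higher (15.6% of all genes by that test), 1 lower (2.75%) and 0 after adjustment (0.153%). Without the array labelled βFbln5KO replicate 4, 13 of the 53 genes passed the adjusted p with limma, beside 16.4% of all genes, of which Slc36a1 and Slc7a7 were detected throughout.

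Among the 25 genes well above background throughout, 1 was thus higher at an unadjusted p of 0.05, where 1.01% of the 13650 genes detected in this way were, and 0 were lower, where 3.08% were. Their log2 fold changes ran from −0.55 for Slc6a9 to 0.78 for Slc36a1. In 17 genes (68.0%) the difference was under 0.2 on the log2 scale in either direction, beside 86.6% of all genes detected throughout. The sign was negative in 17 genes (68.0%) and positive in 8, beside 53.6% negative over all such genes. The 95% interval of the difference lay within 0.5 on the log2 scale of 0, that is within 1.41-fold either way, in 15 of the 25 genes, and within 1 in 23 of them. These shares were not counted over all genes. The median standard deviation within groups was 0.19 for the 25 genes, beside 0.13 over all genes detected throughout. The median log2 fold change of the 25 genes was −0.10 (−0.049 without control replicate 3 and −0.055 without βFbln5KO replicate 1), beside −0.0082 over all genes detected throughout, and the median size was 0.12 beside 0.064. Taken array by array as the median deviation from each gene's control mean, the 25 genes stood at 0.00028, −0.0074, 0.038 and 0.022 in control and at −0.096, −0.092, −0.071 and 0.034 in βFbln5KO. The first 3 βFbln5KO arrays were below every control array, and the array labelled replicate 4 was inside the control range. Centring on the control mean draws the control values toward 0 by construction, and the same medians over all genes were not taken.

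**Figure D1:**
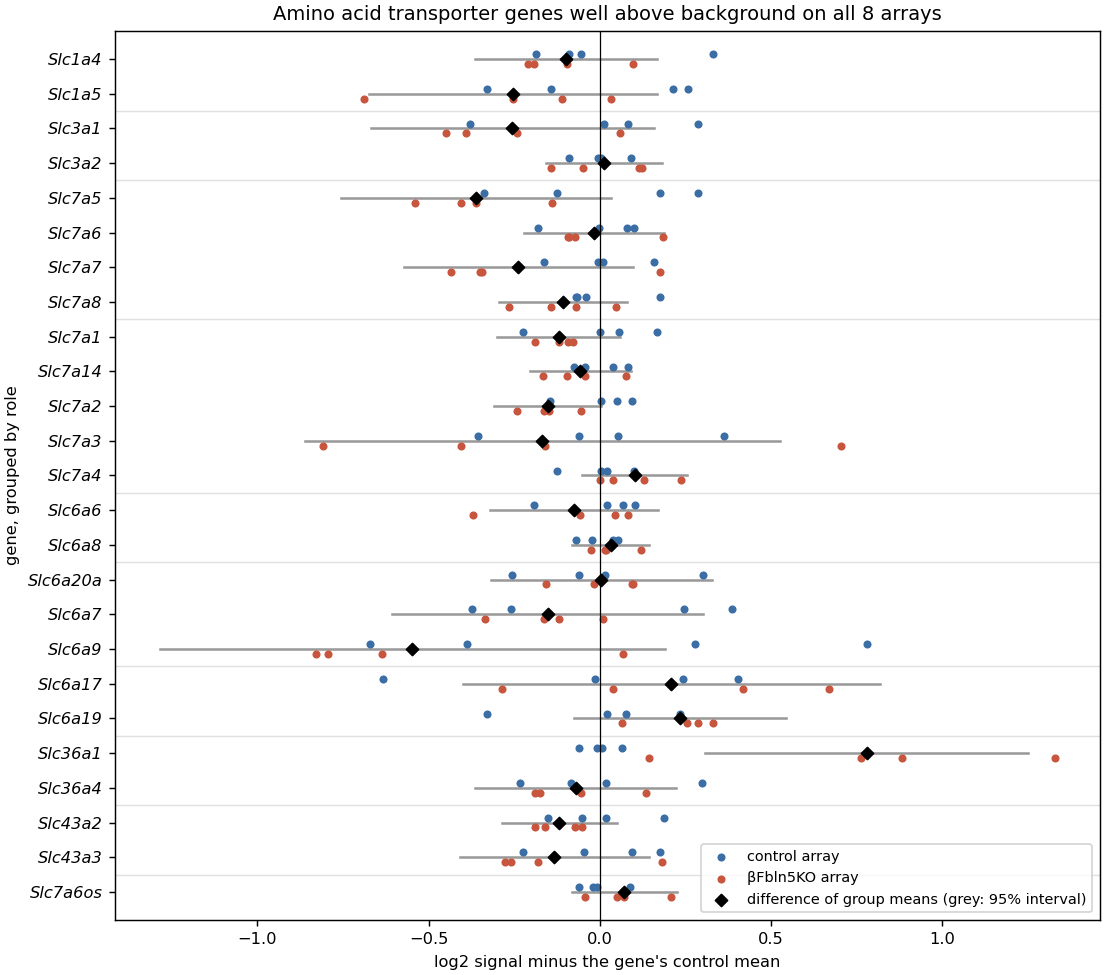
Log2 signal of each of the 25 genes well above background on all 8 arrays (24 transporter genes and Slc7a6os), minus the gene's control mean (x axis), by gene and role (y axis). Blue points are the 4 control arrays, red points the 4 βFbln5KO arrays, diamonds the difference of the group means and grey lines its 95% interval from limma. The red points of Slc36a1 lie above all blue ones, and the interval of every other gene includes 0.

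Slc36a1, a proton-coupled carrier of small neutral amino acids on lysosomes and the cell surface, was the transporter gene with the largest difference among those detected throughout. Its log2 signal on probe A_51_P338563 was 0.066, −0.00075, 0.051 and 0.12 in control and 1.39, 0.82, 0.94 and 0.20 in βFbln5KO. All 4 βFbln5KO arrays were above all 4 control arrays, by a narrow margin for the array labelled replicate 4; the groups did not overlap in 2.7% of the genes detected throughout. The log2 fold change was 0.78 ± 0.21 (SE), a 1.72-fold higher signal with a 95% interval of 1.24 to 2.38. The limma p was 0.0048, the adjusted p 0.073, and the exact two-sided permutation test gave 0.0286, the smallest p that 4 against 4 arrays allow. The adjusted p depended on the setting. It was 0.66 with only probes that passed the background call on 4 or more arrays and 0.77 with a common floor for dim signals. With normexp it was 0.75, with quantile normalization 0.73 and with the deposited signals divided by 1 number per array 0.69. It was 0.061 by eBayes without trend, 0.072 with outliers kept, 0.11 by the methods' t-test and 0.22 with the replicate block. Why it changed was not tested. Without the array labelled βFbln5KO replicate 4 the log2 fold change was 0.99 and the adjusted p 0.0025, and over all arrays left out in turn it was 0.60 to 0.99.

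The other probe of Slc36a1, A_55_P2000269, gave no matching difference. It passed the background call on the 4 control arrays and on 1 βFbln5KO array, with log2 signals of −4.28, −4.73, −4.81 and −4.44 in control and −5.92, −5.00, −4.11 and −5.41 in βFbln5KO. On βFbln5KO replicate 3, the one array of that group where it was well above background, it was higher than on every control array. The other 3 βFbln5KO signals were below the control ones but not well above background, so no fold is given for this probe. The mean over both probes gave a log2 fold change of 0.12 for Slc36a1, a value that includes these dim signals. The probe that was higher sits in row 5 of the array's 384 spot rows. Of the 1206 probes detected throughout in the first 16 rows, 3.4% were higher at an unadjusted p of 0.05, and 1.66% had a log2 fold change of 0.75 or more. In the rows between the edges these shares were 0.741% and 0.214% of 24288 probes. The part of spot position in the Slc36a1 difference was not tested. Of the other transporter genes, Slc1a4 (row 8) and Slc7a12 (row 10) were read in those first rows. The log2 fold change of Slc36a4, the second Slc36a gene detected throughout, was −0.07 (95% interval −0.36 to 0.22), and Slc36a2 and Slc36a3 were on no array well above background.

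**Figure D2:**
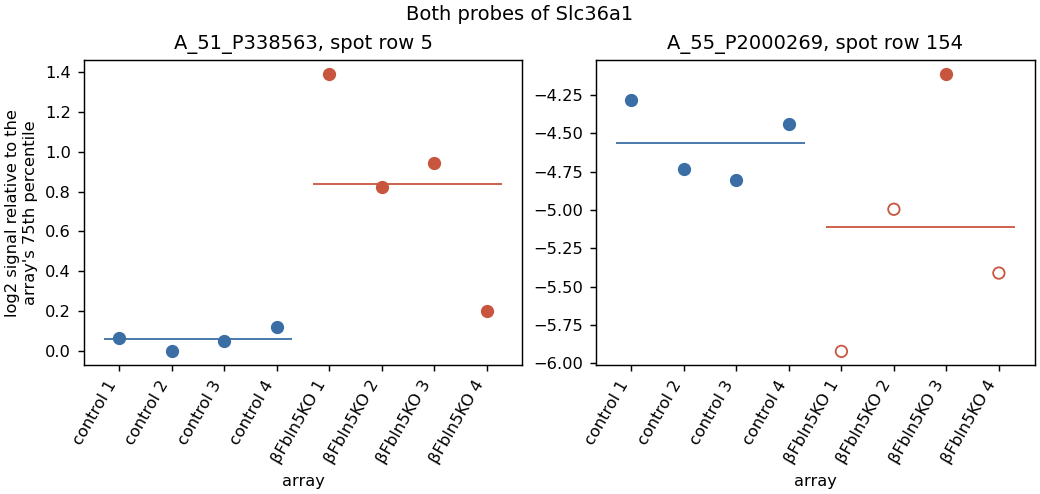
Log2 signal relative to the array's 75th percentile (y axis) of the 2 Slc36a1 probes on each array (x axis). Filled points were well above background, open ones were not, and lines are group means. The probe on the left is higher on the βFbln5KO arrays and the one on the right was well above background on 1 βFbln5KO array; the 2 panels have separate y axes.

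The heavy chain gene Slc3a2, whose product carries most of the light chains to the cell surface, had log2 signals of 4.32, 4.41, 4.50 and 4.40 in control and 4.27, 4.36, 4.53 and 4.52 in βFbln5KO. The groups overlapped over nearly their whole range, and the log2 fold change was 0.01 with a 95% interval of −0.16 to 0.18. Its second probe gave 0.02. Slc3a1, the heavy chain of the cystine carrier, had a log2 fold change of −0.26 (95% interval −0.67 to 0.16).

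On the probe with the highest mean signal, all 4 light chain genes detected throughout had negative differences, from −0.36 to −0.02, and none passed an unadjusted p of 0.05. Slc7a5, the exchanger of leucine and other large neutral amino acids, had log2 signals of −2.20, −2.83, −2.31 and −2.61 in control and −2.89, −2.63, −2.85 and −3.03 in βFbln5KO. On 3 βFbln5KO arrays it was below every control array, and the log2 fold change was −0.36 ± 0.17 (SE; limma adjusted p = 0.25, exact permutation p = 0.057). The related exchanger gene Slc7a8 had log2 signals of 3.21, 3.21, 3.46 and 3.24 in control and 3.02, 3.14, 3.21 and 3.33 in βFbln5KO, with overlap between the groups and a log2 fold change of −0.11 (95% interval −0.29 to 0.08). Without control replicate 3 the log2 fold change of Slc7a8 was −0.049. Its second probe, well above background on 7 of the 8 arrays, gave 0.17. Slc7a7, which exchanges cationic for neutral amino acids, stood at −1.67, −1.66, −1.51 and −1.83 in control and at −2.10, −2.01, −2.02 and −1.49 in βFbln5KO. The first 3 βFbln5KO arrays were below every control array and the array labelled replicate 4 was above them. Over all arrays the log2 fold change of Slc7a7 was −0.24 (limma adjusted p = 0.39), and without the array labelled βFbln5KO replicate 4 it was −0.38 (adjusted p = 0.038). In that fit 13 of the 53 genes passed, only Slc7a7 and Slc36a1 of them detected throughout. The share of all genes detected throughout that passed was not counted, and Slc7a7 was described after its values were seen. The log2 fold change of Slc7a6, which has the same kind of exchange, was −0.02, and its second probe, also detected throughout, gave 0.08. Slc7a11, the light chain that exchanges cystine for glutamate, was on no array well above background with either of its 2 probes, and neither were Slc7a9, Slc7a10 and Slc7a15.

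All 5 genes of the cationic branch of Slc7a were detected throughout, and 4 had negative differences. Slc7a1, the widely expressed arginine and lysine carrier, had log2 signals of 2.85, 2.63, 3.02 and 2.91 in control and 2.76, 2.66, 2.77 and 2.73 in βFbln5KO. The βFbln5KO arrays all lay inside the control range, and the log2 fold change was −0.12 (95% interval −0.30 to 0.06). Slc7a2, a second carrier of cationic amino acids, stood at 0.18, −0.06, 0.14 and 0.09 in control and at −0.08, −0.16, −0.06 and 0.03 in βFbln5KO. On 3 βFbln5KO arrays it was below every control array, and the log2 fold change was −0.15 ± 0.069 (SE), with a limma p of 0.055 and an adjusted p of 0.22. The other genes of this branch had log2 fold changes of −0.17 (Slc7a3), −0.06 (Slc7a14, a lysosomal protein) and 0.10 (Slc7a4).

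Of the 7 Slc1a genes, only Slc1a4 and Slc1a5, the carriers of small neutral amino acids, were detected throughout. Slc1a5, which takes up glutamine, had log2 signals of −1.27, −1.45, −0.91 and −0.86 in control and −1.23, −1.81, −1.38 and −1.09 in βFbln5KO. The groups overlapped, and the log2 fold change was −0.25 (95% interval −0.68 to 0.17), with −0.365 without control replicate 2 and −0.11 without βFbln5KO replicate 2. That of Slc1a4 was −0.10.

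The glycine carrier gene Slc6a9 varied more among the 8 arrays than any other transporter gene detected throughout, over a range of 1.61 on the log2 scale. Its log2 signal was 1.07, 0.79, 2.24 and 1.74 in control and 0.82, 0.67, 0.63 and 1.53 in βFbln5KO. On 2 βFbln5KO arrays it was below every control array, and the control range alone spanned 1.45. The log2 fold change of −0.55 was therefore smaller than the spread between control arrays (95% interval −1.28 to 0.19; exact permutation p = 0.20). It was −0.77 without control replicate 2 and −0.29 without control replicate 3. The mean log2 signal of the 11 acinar cell markers, genes of the digestive enzymes made by exocrine cells, was 6.94, 6.66, 8.27 and 7.95 in control and 6.88, 5.89, 5.98 and 7.56 in βFbln5KO. Of the βFbln5KO arrays, 2 were below every control array for these markers, with a difference of −0.88 (exact permutation p = 0.14). Control 3, control 4 and βFbln5KO 4 were the 3 highest arrays for the acinar markers and also for 3 of the 25 genes, namely Slc6a9, Slc1a5 and Slc7a8. The share of all genes detected throughout that were highest on these 3 arrays was not counted. The part of exocrine tissue in the differences of these 3 genes was not tested.

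**Figure D3:**
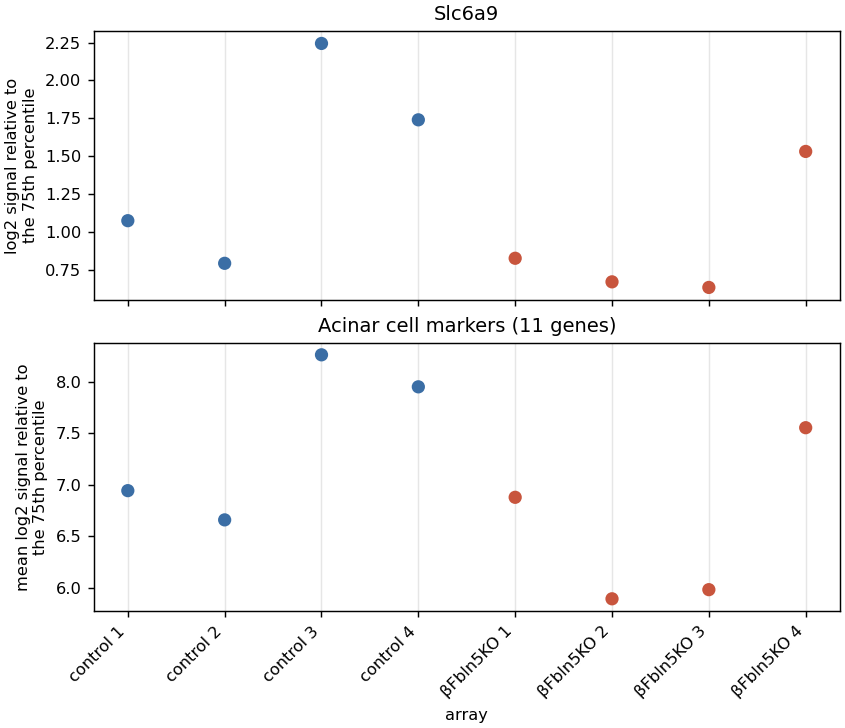
Log2 signal of Slc6a9 (top) and mean log2 signal of 11 acinar cell markers (bottom) relative to the array's 75th percentile (y axes) on each array (x axis), with control in blue and βFbln5KO in red. Control 3, control 4 and βFbln5KO 4 are the 3 highest arrays in both panels.

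The other Slc6a genes detected throughout had differences of 0.23 or less in size on the log2 scale. The taurine carrier gene Slc6a6 had log2 signals of 3.36, 3.44, 3.15 and 3.40 in control and 3.28, 3.42, 3.38 and 2.97 in βFbln5KO. The array labelled βFbln5KO replicate 4 was the lowest of all 8, and the log2 fold change was −0.07 (95% interval −0.32 to 0.17). The creatine carrier gene Slc6a8 had the narrowest interval of the 25 genes, −0.08 to 0.14 around 0.03. Slc6a17, a carrier of neutral amino acids on synaptic vesicles, stood at −1.64, −2.06, −2.68 and −1.80 in control and at −1.38, −2.33, −2.01 and −1.63 in βFbln5KO. The groups overlapped, and the log2 fold change was 0.21 (95% interval −0.40 to 0.82). The second probe, well above background on 4 control and 2 βFbln5KO arrays, gave −0.37, a value that includes dim signals. The differences of Slc6a19, a neutral amino acid carrier best known from gut and kidney, and of the proline carrier genes Slc6a20a and Slc6a7 were 0.23 (95% interval −0.07 to 0.54), 0.0049 (−0.32 to 0.33) and −0.15 (−0.61 to 0.30). With each array left out, that of Slc6a19 ran from 0.12 to 0.31 and that of Slc6a7 from −0.28 to −0.023, the lowest and highest values without control replicates 3 and 2 and without control replicates 1 and 4.

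Both Slc43a genes that were detected throughout had small negative differences. Slc43a2, a carrier of branched-chain amino acids and other neutral ones, had log2 signals of 2.46, 2.63, 2.80 and 2.56 in control and 2.45, 2.56, 2.54 and 2.42 in βFbln5KO, with overlap and a log2 fold change of −0.12 (95% interval −0.29 to 0.05). With each array left out, the log2 fold change of Slc43a2 ran from −0.17 to −0.055, the latter without control replicate 3. Its second probe gave −0.25, and with the mean over both probes the log2 fold change was −0.18 (limma adjusted p = 0.12), past an unadjusted p of 0.05. Slc43a3, which transports purine bases rather than amino acids, had a log2 fold change of −0.13 (95% interval −0.41 to 0.14), and −0.24 to −0.075 with each array left out.

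Slc43a1, a carrier of large neutral amino acids, was read by 2 probes with unequal differences. On the brighter probe, A_66_P137432, it was well above background on 4 control and 3 βFbln5KO arrays, with log2 signals of −3.32, −4.27, −4.21 and −2.99 in control and −4.57, −3.90, −3.71 and −4.14 in βFbln5KO. Of the 4 βFbln5KO arrays, 3 lay inside the control range, and the log2 fold change was −0.38 (95% interval −1.18 to 0.42), with −0.57 without control replicate 2 and −0.14 without control replicate 4. On A_55_P2019690, in row 382 of the array, the signals were −3.15, −3.34, −4.52 and −6.78 in control and −6.31, −6.37, −6.53 and −6.89 in βFbln5KO. This probe passed the background call on 3 control arrays and on no βFbln5KO array, and control replicate 4 was lower than all but 1 of the βFbln5KO arrays. No fold or test is given for it, because it was dim on every βFbln5KO array and the control mean did not exceed the mean, over the βFbln5KO arrays, of each array's lowest well-above-background signal. The mean over both probes gave a log2 fold change of −1.23 for Slc43a1, a value that includes these dim signals. For the 6 transporter genes whose 2 probes were both detected throughout, the 2 log2 fold changes differed by at most 0.139. In the other 12 genes with 2 probes at least 1 of them was dim on some array.

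A further 11 genes were well above background on some arrays, 9 of them on a single one. Slc1a1, a carrier of glutamate, aspartate and cysteine, was well above background on 1 control and 3 βFbln5KO arrays, with log2 signals of −5.40, −4.74, −4.27 and −5.51 in control and −1.76, −3.28, −5.86 and −2.70 in βFbln5KO. On 3 βFbln5KO arrays it was above every control array, and on replicate 3 it was below them all. No fold or test is given, because 3 of the 4 control signals were not well above background. A second probe was well above background on 2 βFbln5KO arrays and on no control array. Its log2 signals were −5.77, −4.89, −5.04 and −5.37 in control and −5.96, −4.02, −4.85 and −4.27 in βFbln5KO. On βFbln5KO replicate 1, where the first probe was brightest, the second was lower than on every other array. Slc6a15, a neutral amino acid carrier of neurons, was well above background on 4 control and 2 βFbln5KO arrays. Its log2 fold changes are given only where the processing settings are compared, and they include signals that were not well above background.

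Slc6a20b and Slc7a12 were each well above background on 1 βFbln5KO array, where the scanner software marked that spot as an outlier, and on the remaining arrays both had signals below −6.30 on the log2 scale. Slc6a3, Slc6a11, Slc6a13 and Slc6a18 were each well above background on 1 βFbln5KO array, and Slc1a3 and Slc7a13 on 1 control array.

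**Figure D4:**
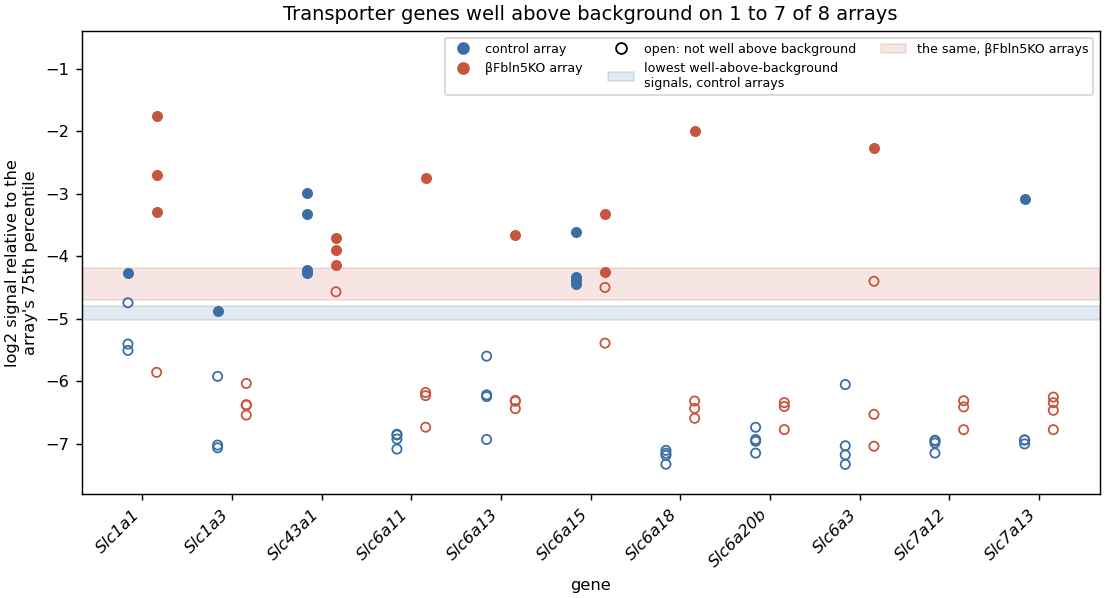
Log2 signal relative to the array's 75th percentile (y axis) of 11 of the 12 transporter genes well above background on 1 to 7 arrays (x axis), with control in blue and βFbln5KO in red. Filled points were well above background and open ones were not; the bands span the lowest well-above-background signals of each group's arrays, −5.01 to −4.79 in control and −4.70 to −4.19 in βFbln5KO. Outlier-marked values are left out, so Slc6a20b and Slc7a12 have 3 βFbln5KO points each.

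The 16 genes that passed the background call on no array were Slc1a2, Slc1a6, Slc1a7, Slc6a2, Slc6a4, Slc6a5, Slc6a12, Slc6a14, Slc6a21, Slc7a9, Slc7a10, Slc7a11, Slc7a15, Slc36a2, Slc36a3 and Slc36a1os. Their differences had a median of 0.51 on the log2 scale, and 12 of the 16 were positive. Over all 5710 genes that passed the background call on no array, the median was 0.48 and 87.0% were positive, and 60.6% were higher at an unadjusted p of 0.05. The 8 of the 16 that were higher at that p had log2 signals of −7.34 to −6.75 in control and −7.00 to −5.32 in βFbln5KO. The lowest signal called well above background, averaged over the arrays of a group, was also 0.51 higher in βFbln5KO, so the dim probes were higher together with the arrays' own floor. No fold was given for these genes.

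A short letter pattern that the ATF4 protein is known to bind near amino acid response genes, TGATGNAA, was looked for in the promoters, because several of these transporters are textbook targets of that response. RefSeq windows from 250 bases before to 50 bases after a gene's start were held for 37 of the 53 genes (GRCm38.p6), and both strands were read. The pattern occurred in 4 of the 37 genes (10.8%), beside 4.51% of 27025 genes in all. The stretches around it are printed because they let these genes be set beside their signals. They run 5′ to 3′ on the gene's strand with the pattern in capitals, as its reverse complement where it lies on the opposite strand.
Slc1a4, chr11:20332700-20332727, minus strand: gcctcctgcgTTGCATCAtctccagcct
Slc7a11, chr3:50443653-50443680, minus strand: cTGATGCAAacctggagaatTTGCATCA
Slc7a7, chr14:54417928-54417955, minus strand: acctagaagcTGATGCAAcagcttcccc
Slc7a7, chr14:54418068-54418095, minus strand: cgcttgggctTGATGAAAggttcactgg
Slc6a21, chr7:45282835-45282862, plus strand: gaggtgagaaTTACATCAagtgggcctc
Slc7a11 held the pattern on both strands within 28 bases, and neither Slc7a11 nor Slc6a21 was well above background in these islets. Slc1a4 and Slc7a7, the 2 others, had log2 fold changes of −0.10 and −0.24, neither past an unadjusted p of 0.05. A match in these letters is a description and no evidence of binding.

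Genes related to amino acid handling were counted in the same way, beside the 1.01% higher and 3.08% lower of all genes detected throughout. Of 11 Slc38a genes, the sodium-coupled carriers of small neutral amino acids, 9 were detected throughout, and at an unadjusted p of 0.05 2 of these were higher and 1 was lower. Slc38a1 rose by 5.62 on the log2 scale (limma adjusted p = 7.5e-05), with −3.47, −2.56, −3.00 and −3.70 in control and 2.40, 2.46, 2.51 and 2.40 in βFbln5KO. Slc38a2 fell by 0.98 (adjusted p = 0.0064) and Slc38a4 differed by 0.57 (adjusted p = 0.073). Of 28 measured genes of the ATF4 response, 25 were detected throughout, and 0 passed an unadjusted p of 0.05 in either direction. Of 31 genes that sense amino acids upstream of mTORC1, 30 were detected throughout and 0 of these passed. The one that was not, the arginine sensor gene Castor1, was well above background on 2 βFbln5KO arrays, at −2.71 and −2.99, and on no control array, so no fold or test is given. Of 20 further amino acid and peptide carriers, 10 were detected throughout and 0 of these passed. Of the 5 that were on no array well above background, 2 were higher, beside 60.6% of all such genes.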

How the data were processed

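Per the labels and the paper's methods, the authors labelled islet RNA with Cy3 and scanned 1 slide of 8 arrays with Agilent Feature Extraction 11.0.1.1. For each array they deposited a background-subtracted spot intensity (the processed signal), not yet normalized across arrays, with flags for outliers and for spots well above background. A second deposited table of 35553 probes holds these signals after division by a single number for each array (column medians 0.388 to 0.417) and served as an alternative.

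The log2 signals of 59305 non-control spots were shifted by each array's 75th percentile, outlier-marked values (0.356%) were left out, and replicate spots were averaged to 56605 probes. Of these, 32994 were named through RefSeq accessions. The array was designed on an earlier genome build, so gene coordinates are not printed. No spot was saturated, and the number of arrays limits the precision. Groups were compared with limma 3.58.1 (lmFit, eBayes with trend) in R 4.3.3, p-values were adjusted over all probes after Benjamini and Hochberg, and single genes were tested also by exact two-sided permutation tests. A gene was read from its probe with the highest mean signal. The procedure was tested on simulated data.

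The genes, the lists and the rule for named genes were chosen with earlier results of these data known. Genes were named if a probe well above background on some array passed an unadjusted p of 0.05, or if the groups did not overlap on arrays all well above background; 13 others were named regardless, and the rest are given by role with their values. Slc7a7, Slc1a1, Slc6a9 and the positions of probes were described after their values were seen. Alternatives were normexp (offset 50), quantile normalization, only probes that passed the background call on 4 or more arrays, a common floor for dim signals, eBayes without trend, outliers kept, the deposited table, the methods' t-test, the replicate number as a block, the mean over a gene's probes, and each array left out. Figures were drawn with matplotlib. The values of 1 gene are not reported here.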

Additional observations from a re-analysis of the deposited data

Results flagged for a closer look

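Within each group of 4 arrays, a single value was set apart when its gap to the nearest other array over the group's range exceeded Dixon's 95% critical value for 4 values. Of the 50 groups of genes detected throughout 3 were set apart, where chance alone gives about 1 in 20. Among the genes detected throughout, Slc7a7 stood at −1.49 on the array labelled βFbln5KO replicate 4, above the other 3 arrays of its group. Slc7a8 stood at 3.46 on control replicate 3, and Slc7a6 at −0.20 on βFbln5KO replicate 3, each above the rest of its group.

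Among the genes detected on some arrays, 5 single arrays stood above the rest of their group. They were Slc6a18 at −1.99 on βFbln5KO replicate 2, Slc6a11 at −2.74 on βFbln5KO replicate 3, Slc6a13 at −3.65 on βFbln5KO replicate 4, Slc7a13 at −3.09 on control replicate 4 and Slc6a15 at −3.61 on control replicate 2. The first 4 of these were the one array on which the gene was well above background, and each group's other 3 arrays were not. These genes were examined only because of that array, so their number is not set beside a chance rate.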

How the results depend on the processing

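Precision is set by 4 arrays per group, and signals near the arrays' floor hold no fold. Genes called at an adjusted p of 0.05 numbered 0 of 53, except for 7 with eBayes without trend (9.11% of all genes) and 0 to 13 with each array left out (13 without the array labelled βFbln5KO replicate 4, with 16.4% of all genes, and 0 without any other array). Genes detected throughout that passed an unadjusted p of 0.05 numbered 1 of 25 (4.09% of all genes detected throughout), and 2 with normexp (Slc36a1 and Slc7a5; 4.09%), 2 with quantile normalization (Slc36a1 and Slc7a2; 4.58%), 2 with the replicate block (Slc36a1 and Slc7a2; 4.96%) and 1 to 5 with each array left out. The 5, without control replicate 2 (5.44% of all genes), were Slc36a1, Slc6a9, Slc7a1, Slc7a2 and Slc7a5, and beside Slc36a1 came Slc43a2 without control replicate 1, Slc43a3 without βFbln5KO replicate 1, Slc7a5 without βFbln5KO replicate 2, and Slc7a2 and Slc7a7 without βFbln5KO replicate 4. With the mean over a gene's probes the 1 was Slc43a2 and not Slc36a1. The cause of these changes was not tested. The median log2 fold change was −0.11 to −0.049 with each array left out, the smallest without control replicate 3. Replicate numbers did not pair the arrays: deviations of same-numbered arrays correlated at 0.20, 0.295, −0.225 and −0.0219, and only the first 2 numbers had their own number as best partner.

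Of 549 values of single genes (31 genes, 18 settings), 516 kept their direction and side of the adjusted threshold, 6 passed it newly and 27 changed sign, all at 0.25 or less in size. With normexp, Slc6a15 was 0.0083, Slc6a20a −0.024, Slc6a20b −0.16 and Slc7a12 −0.21, the last 2 from signals at the floor, where the sign carries no meaning. With a common floor, Slc6a15 was 0.072. With the mean over probes, Slc6a17 was −0.078, Slc7a6 0.032 and Slc7a8 0.029. With each array left out, log2 fold changes spanned −0.16 to 0.011 for Slc1a4, −0.15 to 0.029 for Slc36a4, −0.026 to 0.063 for Slc3a2, −0.52 to 0.16 for Slc6a15, −0.0016 to 0.37 for Slc6a17, −0.080 to 0.11 for Slc6a20a, −0.14 to 0.024 for Slc6a6, −0.46 to 0.046 for Slc7a3 and −0.085 to 0.016 for Slc7a6. Without the array labelled βFbln5KO replicate 4, Slc36a1 and Slc7a7 were among the 6, as were Slc6a20b and Slc7a12, whose signals were dim on every array that entered the fit.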
